A study of Mus musculus with 24 samples.

Results

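The genes that encode the proteasome and its activators, inhibitor and assembly factors were followed in B16F10 cells, a pigmented mouse melanoma cell line, that lacked Rnf31, Atg5 or both. Members were taken by symbol: Psm, a letter from a to g, and a number. This gave 46 of the 15738 named genes, of which 5 encode immunoproteasome subunits or the activator that goes with them (Psmb8, Psmb9, Psmb10, Psme1 and Psme2) and 41 are the other members. All 46 passed the filter on low counts, Psmb8 and Psmb9 only through the groups without Atg5. Psma8 and Psmb11 were not analysed here, and Psme2b, Psma5-ps and Psmc3ip, whose symbols go on after the number, were kept out of all counts of members.

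The lines were a control knockout (ctrl-KO in the protocol, genotype WT in the labels), an Rnf31 knockout (koRnf31), an Atg5 knockout (koAtg5) and a double knockout (koRnf31-koAtg5). Each was kept in 6-well plates for 24 h with vehicle or with TNFα at 2 ng/ml, in 3 biological replicates, which makes 8 groups and 24 libraries. Rnf31 encodes the enzyme that builds linear ubiquitin chains in inflammatory signalling, and Atg5 encodes a conjugation factor needed to form autophagosomes. Whether a line is 1 clone or a pool, and where each gene was edited, is not given in the sources used here. A difference between lines and a difference between genotypes cannot be told apart.

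The proteasome is a barrel of stacked rings that cuts ubiquitin-tagged proteins into peptides. The outer rings are built from alpha subunits (Psma genes) and the inner rings from beta subunits (Psmb genes), of which Psmb5, Psmb6 and Psmb7 carry the cutting sites. Interferon-γ, and to a lesser degree TNFα, is known to induce Psmb8, Psmb9 and Psmb10, which replace Psmb5, Psmb6 and Psmb7 in newly built particles and shift the peptides made towards those that MHC class I can present. Psme1 and Psme2 form a cap that opens the barrel and are induced by the same cytokine. The regulatory particle, which binds and unfolds tagged proteins, is made of ATPases (Psmc genes) and other subunits (most Psmd genes), and Psmg and some Psmd genes encode chaperones that help to assemble the particles.

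Library totals were 19425795 to 33385502 counts, and libraries of 1 group differed by more than sampling noise (chi-square per degree of freedom 3.09 to 30). The highest value came from control vehicle replicate 2, in which the 41 other members were also high: their median log2 deviation from the group mean was 0.12, against -0.08 to 0.06 in the remaining 23 libraries. Atg5 itself was at 50.5, 61.9 and 51.7 CPM, counts scaled to a common library size, in the control vehicle libraries and at 20.98, 20.7 and 24.9 CPM in those of koAtg5. Rnf31 was at 10.7, 9.997 and 8.61 CPM in control and at 7.74, 7.85 and 8.52 CPM in koRnf31 with vehicle (adjusted p = 0.0211), a small fall. In koRnf31-koAtg5 with vehicle, Atg5 was at 24.1, 25.0 and 26.9 CPM and Rnf31 at 6.53, 6.46 and 6.87 CPM. All 7 melanoma markers were present, summing to 17820 to 21810 CPM. Of 8 white blood cell markers, 2 (Cd68 and Lyz2) had a row. Their sum was 4.71 to 4.92 CPM in control, 2.31 to 2.73 in koRnf31, 7.09 to 11.02 in koAtg5 and 4.18 to 6.12 in koRnf31-koAtg5, all with vehicle, and its part in the levels of the immunoproteasome genes was not tested. Of 6 fibroblast markers 4 had a row, summing to 6.00 to 7.38 CPM in control, 9.97 to 11.3 in koRnf31, 7.94 to 12.7 in koAtg5 and 6.49 to 7.84 in koRnf31-koAtg5 with vehicle. Col1a1 was the most abundant in each, while Col1a2 averaged 1.52 CPM in control, 1.45 in koRnf31, 0.278 in koAtg5 and 0.261 in koRnf31-koAtg5. Pecam1, the 1 of 3 endothelial markers with a row, stayed at or under 0.368 CPM.

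The immunoproteasome genes were highest in the cells without Atg5. Psmb8, the inducible counterpart of Psmb5, had no count in the 3 control vehicle libraries, 1 in those of koRnf31, and 58, 54 and 19 in those of koAtg5 (1.77, 1.81 and 0.721 CPM). The koAtg5 level was at least 42.9-fold that of control, taking a floor of 3 counts over the control group, and the lower 95% counting limit of the ratio was 34.4. Psmb9, the counterpart of Psmb6, had 2, 5 and 7 counts in control and 45, 37 and 30 in koAtg5 with vehicle. The ratio of these levels was 7.86 (95% counting interval 4.49 to 14.8). No test is given for either gene against control, since each passed the low-count filter only through the groups without Atg5. Both transcripts stayed under 2 CPM in every library, so they were rare messages even where they were highest. Intervals and floors cover counting error only.

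Psmb10, the counterpart of Psmb7, was already present in control cells, at 26.2, 31.2 and 28.2 CPM with vehicle, against 42.8, 33.5 and 36.7 CPM in koAtg5 (log2 fold change 0.40 ± 0.09 SE, adjusted p = 0.000203). Psme1, the alpha subunit of the activator cap, rose from 42.4, 50.2 and 43.0 CPM to 70.4, 68.0 and 65.0 CPM (0.58 ± 0.06, adjusted p = 8.49e-10). Psme2, its beta subunit, rose from 38.6, 46.5 and 40.0 CPM to 85.3, 77.8 and 85.8 CPM (0.99 ± 0.08, adjusted p = 6.31e-12). For none of these 3 genes did the koAtg5 and control libraries overlap. The share of all genes without such overlap was not taken, here or where a lack of overlap is given below. Of all genes tested, 31.3% were called higher and 30.7% lower in this comparison at the same threshold (adjusted p under 0.05), 62% in either direction, so a call alone says little. The median log2 fold change of all genes was 0.01. Psme2b, a near copy of Psme2 whose reads may be shared with it, averaged 2.29 CPM in control cells against 3.93 CPM without Atg5, so the values of both are uncertain to that extent.

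**Figure D1:**
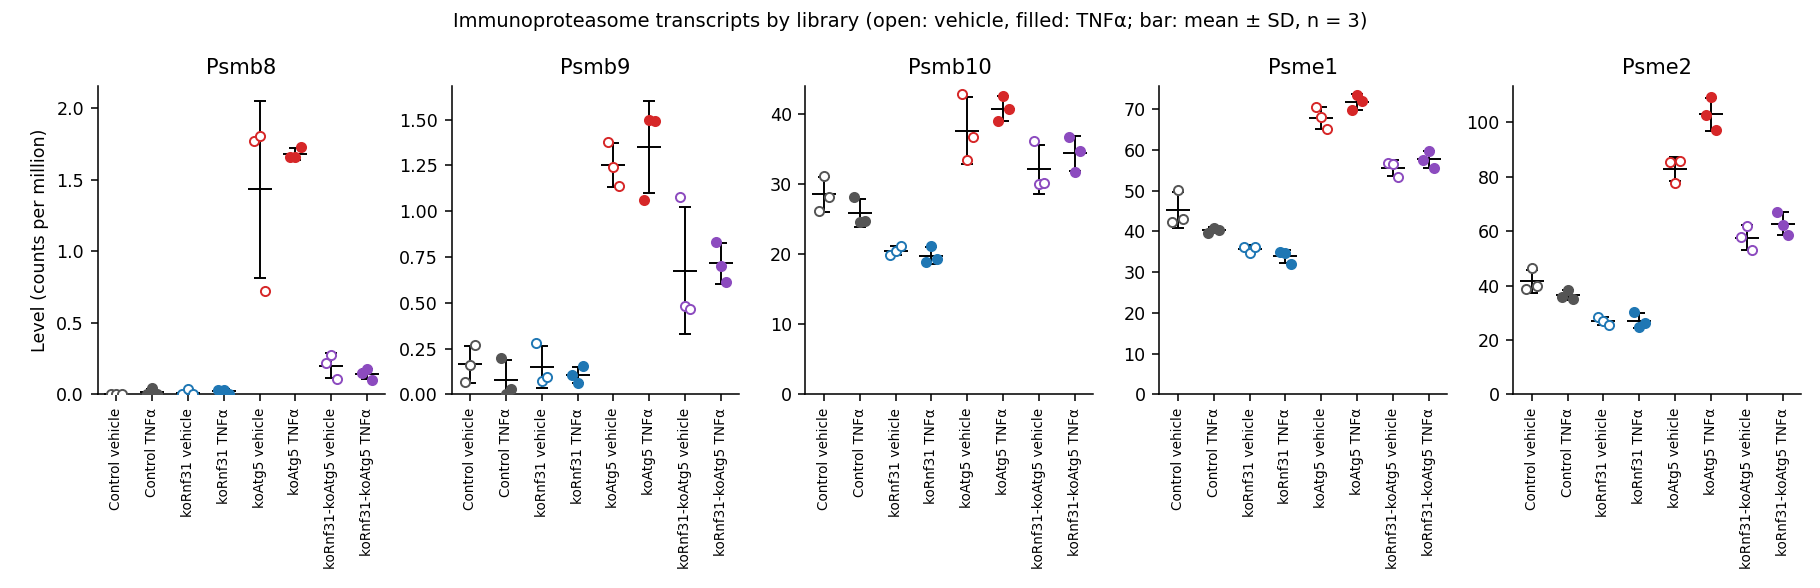
Level of each immunoproteasome gene in every library, in CPM on linear axes from 0 (open points vehicle, filled points TNFα, bar mean ± SD, n = 3). The koAtg5 libraries lie above all control and koRnf31 libraries for each of the 5 genes, and the koRnf31-koAtg5 means lie between those of control and koAtg5.

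Sequence at the start of Psmb8, Psme1 and Psmb9 is shown because these genes were all higher in koAtg5 and differ in the motifs they hold. RefSeq windows (GRCm38.p6) of 250 bases before to 50 after the start were found by symbol for 39 of the 46 members, all 5 immunoproteasome genes among them, and both strands were searched. Capitals mark the gamma-activated site (TTCNNNGAA, known from genes induced by interferon-γ) in Psmb8 and the interferon response element (GAAA, 2 bases of any kind, GAAA, here on the other strand) in Psme1. The Psmb8 stretch is chr17:34198045-34198194 on the plus strand and ends 1 base before the start. The Psme1 stretch is the leading 30 transcribed bases, chr14:55578494-55578523 on the plus strand. The Psmb9 stretch, chr17:34187331-34187480 on the minus strand, lies in the 225 bases between the starts of Psmb9 and of Tap1, which is read the other way, and holds neither motif.
Psmb8: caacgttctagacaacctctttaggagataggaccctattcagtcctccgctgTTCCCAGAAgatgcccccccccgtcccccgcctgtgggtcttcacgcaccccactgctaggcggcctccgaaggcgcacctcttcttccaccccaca
Psme1: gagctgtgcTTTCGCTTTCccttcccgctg
Psmb9: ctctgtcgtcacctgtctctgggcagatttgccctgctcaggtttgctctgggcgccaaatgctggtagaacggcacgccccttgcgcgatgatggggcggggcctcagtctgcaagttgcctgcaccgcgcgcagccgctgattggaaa

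The Psmb8 match lies at bases -97 to -89 and the Psme1 match at bases 10 to 19 from the start. The gamma-activated site was found in 8.3% of all 32851 windows and in 3 of the 39 members (Psmb8, Psmd2 and Psmg1). The interferon response element was found in 3.44% of all windows and in 5 members (Psmb3, Psmd4, Psmd9, Psme1 and Psmg4). The NF-kB consensus was found in 5.8% of all windows and in 1 member, Psma7. Members are counted by gene, and a gene such as Psme2 can have more than 1 window, so the percentages are of another unit. These matches are letters in a window and not measured sites of binding.

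In koRnf31 the genes that could be measured well were lower than in control. Psme2 was at 28.4, 26.9 and 25.5 CPM with vehicle (log2 fold change -0.63 ± 0.08 SE against control, adjusted p = 7.95e-07). Psme1 was at 36.3, 34.7 and 36.2 CPM (-0.34 ± 0.06) and Psmb10 at 19.9, 20.5 and 21.2 CPM (-0.48 ± 0.09), each under every control library. Psmb9 had 12 counts over the group against 14 in control (ratio 0.898, 95% counting interval 0.379 to 2.09), and for Psmb8 no fold is given. Of all genes, 21.5% were called lower here and 24.1% higher. With a correction for a trend of the fold changes with transcript length (below, with the 41 other members), Psme2 stayed lower (-0.35, adjusted p = 5.06e-05), as did Psmb10 (-0.27), while Psme1 was no longer called (-0.09, adjusted p = 0.103).

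In koRnf31-koAtg5 the levels lay between those of the control and koAtg5. Psmb8 had 6, 8 and 3 counts with vehicle, at least 5.90-fold the control level at the floor of 3 counts (lower counting limit 4.30), and Psmb9 had 29, 14 and 13 counts, 4.17 times the control level (95% counting interval 2.29 to 8.10). Psme1 was at 56.8, 56.5 and 53.3 CPM (log2 fold change 0.29 ± 0.06 SE against control, adjusted p = 9.43e-05) and Psme2 at 57.8, 62.1 and 53.0 CPM (0.47 ± 0.08, adjusted p = 1.04e-05). Psmb10 was at 36.2, 30.1 and 30.1 CPM, overlapped the control libraries and missed the threshold (0.17 ± 0.09, adjusted p = 0.103). It was called with the length correction (0.33, adjusted p = 4.89e-04) or when control vehicle replicate 2 (0.24) or replicate 2 or 3 of koRnf31-koAtg5 (0.23 and 0.24) was left out. In this comparison 25.3% of all genes were called higher and 27.2% lower.

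The direct comparison of koRnf31-koAtg5 with koAtg5, both with vehicle, shares no control library with the comparisons above. Psme2 (log2 fold change -0.53 ± 0.07 SE, adjusted p = 2.14e-06) and Psme1 (-0.29 ± 0.06, adjusted p = 0.000173) were lower where Rnf31 was also lost, with no overlap of libraries. Psmb8 stood at 0.138 times the koAtg5 level (95% counting interval 0.0778 to 0.229) with 17 against 131 counts over the groups. Psmb9 stood at 0.530 times (0.378 to 0.737) by counting error, but its adjusted p over replicates was 0.1. Psmb10 was called lower (-0.23 ± 0.09, adjusted p = 0.0332) and lost the call without koAtg5 vehicle replicate 1, its highest library (-0.13). Of all genes 18.2% were called higher, 19.8% lower and 38.1% in either direction. Against koRnf31, the double knockout was higher for Psme2 (1.10 ± 0.08), Psme1 (0.64 ± 0.06) and Psmb10 (0.65 ± 0.09), where 22.5% of all genes were called higher and 48.1% in either direction.

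Psme2 is a neighbour of Rnf31 and is read away from it. In GENCODE M21 on GRCm38, Psme2 occupies chr14:55587441-55591113 on the minus strand and Rnf31 chr14:55591708-55603693 on the plus strand, 594 bases apart, and the RefSeq starts of Psme2 lie 640 and 720 bases from that of Rnf31. Its upstream sequence, chr14:55591102-55591251 on the minus strand, is shown because it lies in that gap, and it held none of the motifs searched.
Psme2: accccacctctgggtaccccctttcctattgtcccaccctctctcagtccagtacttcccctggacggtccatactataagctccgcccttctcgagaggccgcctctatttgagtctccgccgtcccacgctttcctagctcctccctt

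Around the same locus, Psme1 lies 10178 bases from Rnf31, with Emc9 between Psme1 and Psme2, and Irf9, part of the interferon-activated transcription factor complex, overlaps the far end of Rnf31. In koRnf31 against control with vehicle, Rnf31 differed by -0.28 and Psme2 by -0.63, whereas Emc9 (-0.06, adjusted p = 0.825) and Irf9 (-0.18, adjusted p = 0.153) were not called. With TNFα, Emc9 was called lower (-0.51, adjusted p = 0.0374), as were Rnf31 (-0.47), Psme2 (-0.43) and Psme1 (-0.25), and Irf9 was not called (-0.09). In koRnf31-koAtg5 against koAtg5, Rnf31 differed by -0.996, Psme2 by -0.53 and Psme1 by -0.29, while Irf9 was higher (0.64, adjusted p = 2.11e-08) and Emc9 was not called (-0.13, adjusted p = 0.594). The loss of Rnf31 and an effect of its edit on the neighbouring Psme2 cannot be told apart in these groups.

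The subunits that take the same place in the ring were also compared within each library, as counts per transcript length, so that library size does not enter. Psmb10 made up 6.02, 6.33 and 6.30% of the sum of Psmb10 and Psmb7 in the control vehicle libraries and 12.9, 10.3 and 11.5% in those of koAtg5. The share was 5.15, 5.33 and 5.43% in koRnf31 and 9.30, 8.40 and 8.25% in koRnf31-koAtg5. No library of 1 of these 4 lines overlapped those of another. Psmb9 made up 0.0284 ± 0.0185% of its pair with Psmb6 in control and 0.300 ± 0.0215% in koAtg5 (SD, n = 3), and Psmb8 0.306 ± 0.131% of its pair with Psmb5 in koAtg5. In the control vehicle libraries Psmb8 was listed at 0, which allows a share of up to 0.00612% at 3 counts over the group. The standard subunits thus made up most of each pair in every library, the largest share of an inducible one being that of Psmb10.

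**Figure D2:**
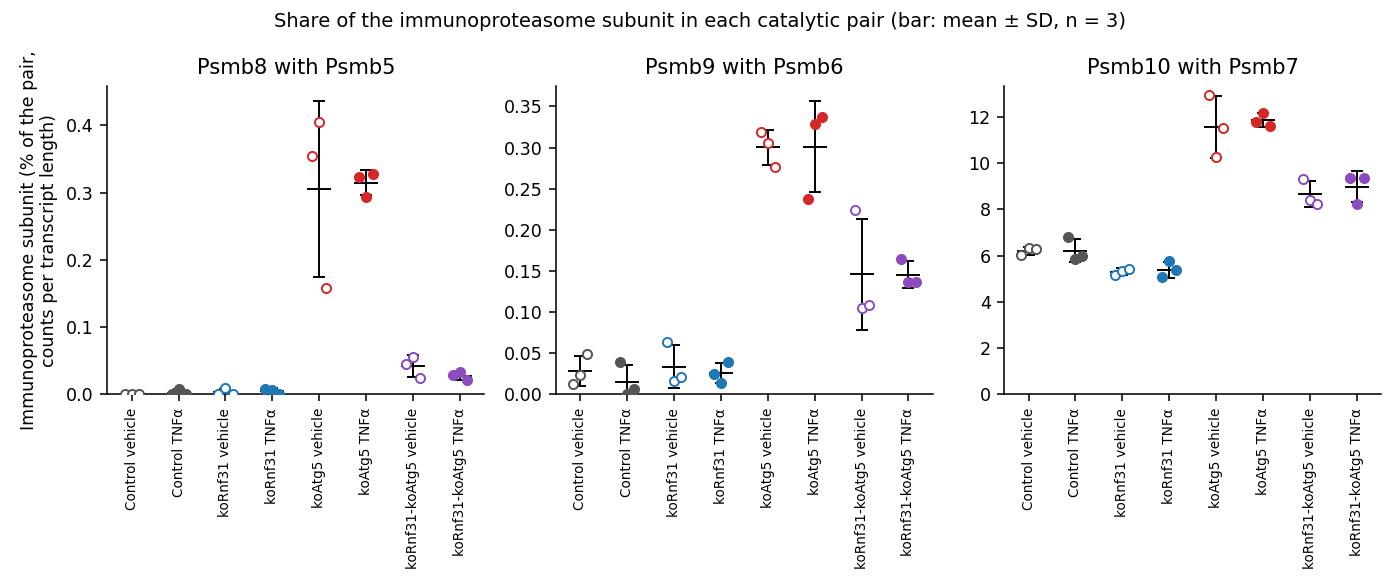
Share of the inducible subunit in each catalytic pair, in percent of the pair's counts per transcript length, by library (open points vehicle, filled points TNFα, bar mean ± SD, n = 3). In the Psmb10 panel the koAtg5 vehicle libraries lie at 10.3% to 12.9% and the control vehicle libraries at 6.02% to 6.33%, and the Psmb8 and Psmb9 axes end below 0.5%.

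The log2 ratio of Psmb10 to Psmb7 was 0.97 higher in koAtg5 and 0.51 higher in koRnf31-koAtg5 than in control with vehicle, and 0.24 lower in koRnf31. With TNFα the same differences were 1.02, 0.57 and -0.22. Each of these reached the smallest p that 3 libraries against 3 allow in a two-sided exact permutation test, 0.1, and an adjusted 0.18 over the 36 tests of this kind, so the test cannot pass 0.05 here. TNFα left the Psmb10 share within the spread of replicates, at 6.22 ± 0.17% with vehicle and 6.22 ± 0.50% with TNFα in control (SD, n = 3) and at 11.6 ± 1.3% and 11.9 ± 0.30% in koAtg5.

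The standard catalytic subunits went the other way. Psmb7 was at 362, 409 and 371 CPM in control and at 255, 259 and 250 CPM in koAtg5 with vehicle (log2 fold change -0.58 ± 0.04 SE, adjusted p = 4.61e-12). Psmb6 fell from 314, 396 and 324 CPM to 254, 238 and 242 CPM (-0.49 ± 0.06). Psmb5 was at 285, 353 and 286 CPM in control and at 275, 246 and 252 CPM in koAtg5 (-0.26 ± 0.07, adjusted p = 0.00151). The Psmb5 call was lost with the length correction (-0.07, adjusted p = 0.0866). In koRnf31 and in koRnf31-koAtg5 the 3 genes were also called lower against control with vehicle. The log2 fold changes were -0.37, -0.39 and -0.23 for Psmb5, Psmb6 and Psmb7 in koRnf31 and -0.24, -0.36 and -0.34 in koRnf31-koAtg5. With the length correction none of the 3 was called in koRnf31 (-0.07, -0.06 and 0.0033), and Psmb6 (-0.11) and Psmb7 (-0.16) were in koRnf31-koAtg5. The 3 knockouts share the control libraries.

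Psmb5 and Psmb6 are shown with the antioxidant response element (TGACNNNGC in capitals), the letters that Nfe2l1, a transcription factor that raises proteasome genes when proteasome activity falls, and related factors bind. It was found in 12.4% of all windows, on either strand, and in 6 of the 39 members with a window, counted by gene. The stretches are chr14:54617996-54618115 on the minus strand for Psmb5 and chr11:70525237-70525356 on the plus strand for Psmb6, each ending 1 base before the start.
Psmb5: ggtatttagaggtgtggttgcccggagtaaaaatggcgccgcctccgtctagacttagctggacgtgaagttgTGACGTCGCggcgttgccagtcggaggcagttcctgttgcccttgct
Psmb6: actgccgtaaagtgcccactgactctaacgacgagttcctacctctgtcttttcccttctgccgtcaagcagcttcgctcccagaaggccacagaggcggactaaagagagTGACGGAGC

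With vehicle, most of the 41 other members were called lower in each knockout line, though the length correction left 16 of 41 in koRnf31. Without the correction, 34 were called lower and 1 higher in koAtg5, with a median log2 fold change of -0.31 where the median of all genes was 0.01. The calls were 29 lower and 3 higher in koRnf31 (median -0.26, all genes 0.01) and 29 lower and 3 higher in koRnf31-koAtg5 (median -0.23, all genes -0.01). The shares of all genes called lower were 30.7%, 21.5% and 27.2%. The summed level of the 41 genes was 9995, 11540 and 10270 CPM in the control vehicle libraries, 9005, 9039 and 9023 CPM in koRnf31, 8806, 8534 and 8430 CPM in koAtg5 and 9552, 9226 and 9108 CPM in koRnf31-koAtg5. Control vehicle replicate 2 was the highest of these. Without it the calls were 34, 27 and 26 lower in koAtg5, koRnf31 and koRnf31-koAtg5, with medians of -0.28, -0.20 and -0.17. In bulk RNA, fewer cells with a transcript and less transcript per cell cannot be told apart.

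**Figure D3:**
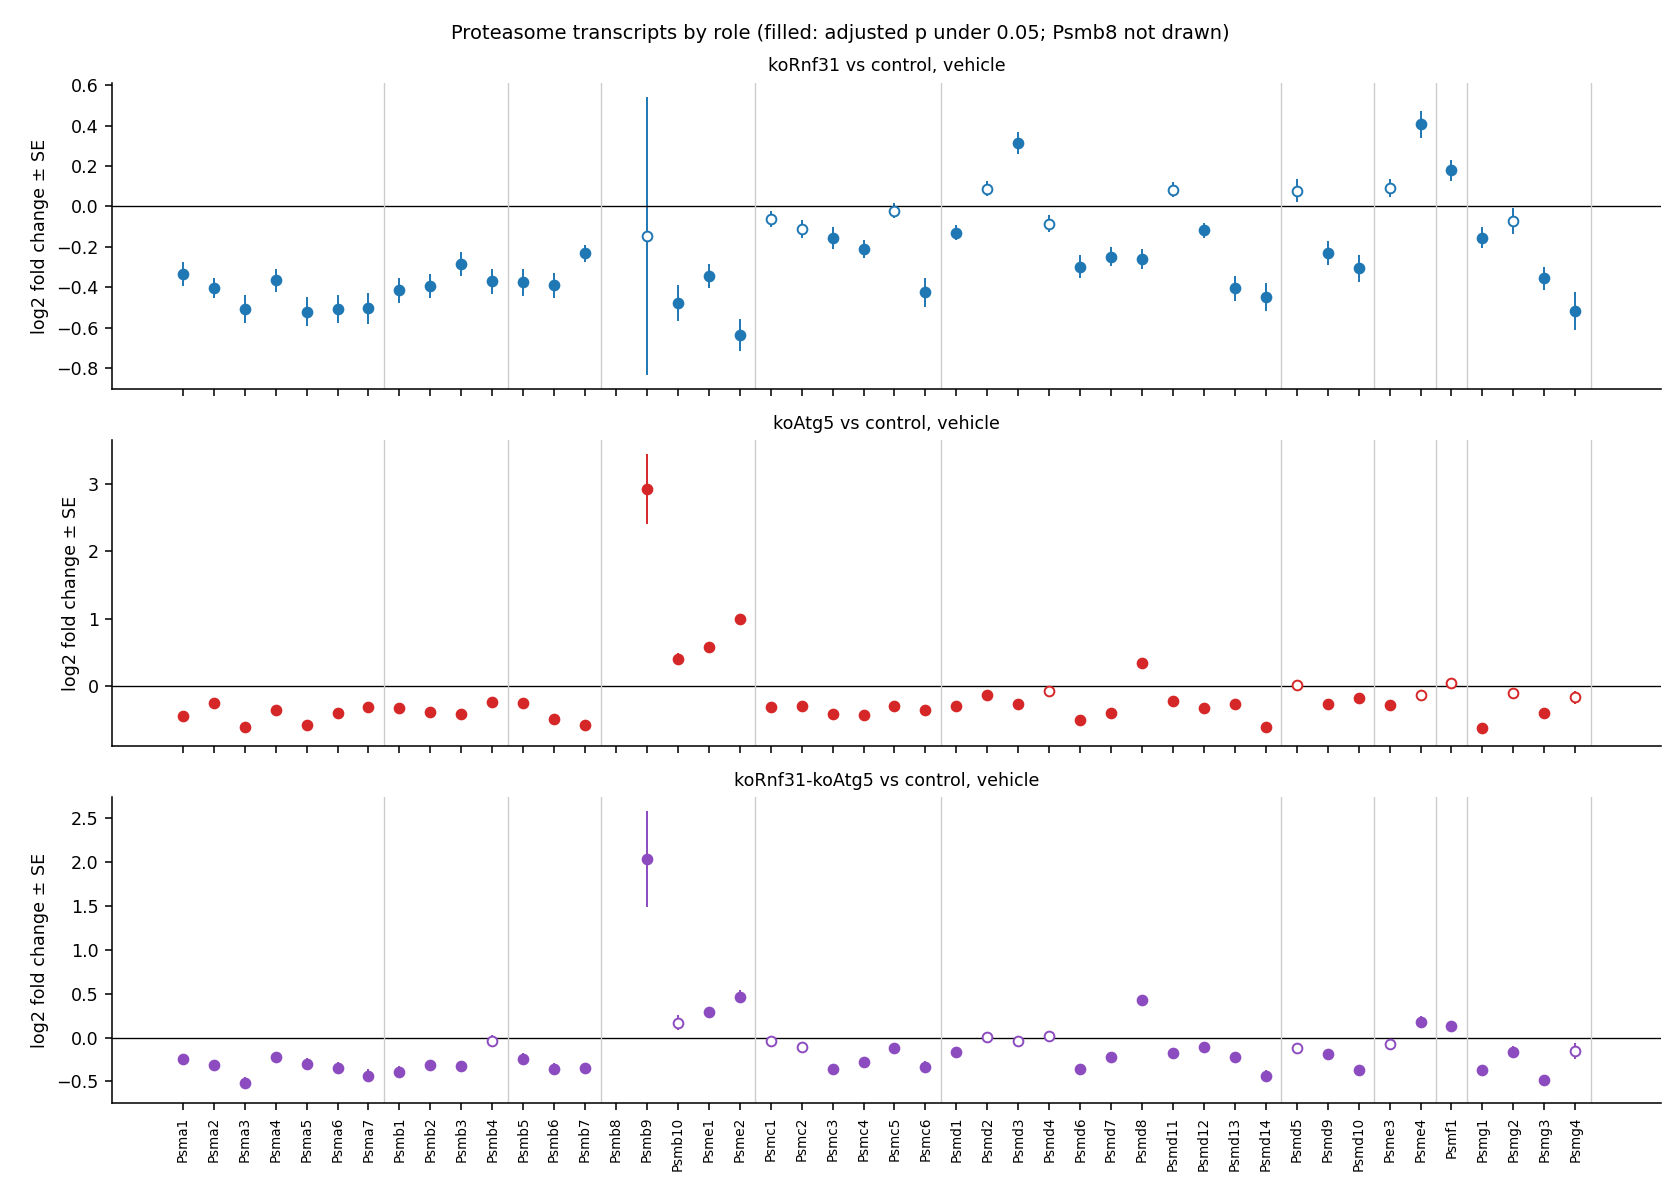
Log2 fold change ± SE against control with vehicle for the members in the order of their roles, separated by vertical lines, in koRnf31, koAtg5 and koRnf31-koAtg5 (filled points adjusted p under 0.05, n = 3 per group). Most points lie below 0 in each panel, and the points of Psmb9, Psmb10, Psme1 and Psme2 lie above 0 in the lower panels. Psmb8 is not drawn, Psmb9 is drawn as a description only and its fill is not read as a test, and each panel has its own vertical scale.

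The alpha ring was lower in the vehicle-treated knockouts. All 7 Psma genes were called lower with vehicle in koRnf31 (median log2 fold change -0.50), in koAtg5 (-0.40) and in koRnf31-koAtg5 (-0.31). With TNFα the calls were 7, 3 and 1 of 7 in the same order, with medians of -0.34, -0.06 and -0.05. Of all genes, 21.5%, 30.7% and 27.2% were called lower with vehicle and 14.7%, 29% and 23.1% with TNFα. The 1 of 7 in koRnf31-koAtg5 with TNFα is thus not above that background. Psma3 was at 475, 629 and 503 CPM in control, 379, 380.2 and 372 CPM in koRnf31, 366, 346 and 339 CPM in koAtg5 and 393, 363 and 367 CPM in koRnf31-koAtg5. Every knockout library lay under every control library for this gene, and its log2 fold changes were -0.51, -0.61 and -0.52 (SE 0.07 each). The remaining beta subunits, Psmb1 to Psmb4, were all called lower in koRnf31 and koAtg5 (4 of 4), and 3 of 4 in koRnf31-koAtg5, where Psmb4 was not called (-0.04, adjusted p = 0.654). After the length correction the counts were 2 lower in koRnf31, 4 lower in koAtg5, and 1 lower and 1 higher in koRnf31-koAtg5. Levels were also taken per transcript length, that of the longest protein-coding transcript in the basic annotation set. The 14 standard subunits of the core in control vehicle libraries then ranged from 71.9 CPM per kb for Psma2 to 432 for Psmb6, a 6.01-fold range among genes whose proteins are used in equal number. That range was 5.18-fold to 6.20-fold in the remaining 7 groups. Psma2 was given a length of 2911 nucleotides and Psmb6 of 798, so the range depends on the transcript chosen.

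In the regulatory particle most genes were lower in koAtg5 as well. All 6 ATPase genes (Psmc1 to Psmc6) were called lower in koAtg5 with vehicle (median -0.34), 3 of 6 in koRnf31 and 4 of 6 in koRnf31-koAtg5, where 30.7%, 21.5% and 27.2% of all genes were called lower. When length was corrected for, koAtg5 kept 6 lower, koRnf31 had 1 lower and 2 higher, and koRnf31-koAtg5 3 lower and 1 higher. Psmc4 was at 273, 318 and 291 CPM in control and at 223, 218 and 210.2 CPM in koAtg5 (-0.44 ± 0.05, adjusted p = 3.09e-09). Among the 11 remaining subunits, 9 were called lower and 1 higher in koAtg5, against 7 lower and 1 higher in each of the other knockouts. With the length correction koAtg5 had 9 lower and 1 higher, koRnf31 5 lower and 3 higher, and koRnf31-koAtg5 6 lower and 2 higher. Psmd14, the enzyme that removes the ubiquitin tag, fell from 256, 338 and 279 CPM to 193, 191 and 188 CPM in koAtg5 (-0.61 ± 0.07, adjusted p = 1.34e-08) and was called lower in koRnf31 (-0.45) and koRnf31-koAtg5 (-0.44). Psmd4, which binds ubiquitin chains, was not called in any of the 3 lines with vehicle (-0.07 in koAtg5, -0.09 in koRnf31 and 0.02 in koRnf31-koAtg5).

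Psmd8, a structural subunit of the regulatory lid, was higher in both lines without Atg5. It was at 496, 566 and 506 CPM in control, 688, 675 and 630.2 CPM in koAtg5 and 720.1, 719 and 672 CPM in koRnf31-koAtg5 with vehicle (log2 fold changes 0.35 ± 0.05 and 0.43 ± 0.05, adjusted p = 8.79e-07 and 4.26e-08). All libraries without Atg5 lay above all control libraries. In koRnf31 it was lower, at 431, 438 and 443 CPM (-0.26 ± 0.05). With the length correction it remained higher in koAtg5 (0.41) and koRnf31-koAtg5 (0.52) and lower in koRnf31 (-0.16). Psmd3, another lid subunit, was higher in koRnf31 (0.31 ± 0.06), lower in koAtg5 (-0.27 ± 0.06) and not called in koRnf31-koAtg5 (-0.04, adjusted p = 0.564).

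Psme3 and Psme4 encode alternative caps. Psme3, which encodes a nuclear activator, was called lower in koAtg5 with vehicle (-0.29 ± 0.04) and was not called in koRnf31 (0.09) or koRnf31-koAtg5 (-0.08). Psme4, a single large protein that also opens the barrel, was at 91.6, 73.1 and 91.5 CPM in control and at 112, 110.4 and 116 CPM in koRnf31 (0.41 ± 0.07, adjusted p = 2.34e-05), with no overlap, and was not called in koAtg5 (-0.14, adjusted p = 0.0805). It is also the longest member, at 6491 nucleotides, and with the length correction its values were 0.20 in koRnf31 and -0.29 in koAtg5, both called. Psmf1, an inhibitor of the core, differed little: 0.18 in koRnf31 and 0.13 in koRnf31-koAtg5, both called, and 0.04 in koAtg5, not called. Both calls were lost with the length correction (0.11 in each).

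Of the assembly chaperones, Psmg1, which starts the alpha ring together with Psmg2, was, with Psma3 and Psmd14, at the lower end of the 41 in koAtg5. It was at 51.6, 52.1 and 50.9 CPM in control and at 35.6, 31.3 and 33.7 CPM in koAtg5 with vehicle (-0.62 ± 0.05, adjusted p = 7.58e-11), at 40.7, 38.7 and 40.4 CPM in koRnf31-koAtg5 (-0.37 ± 0.05) and at 44.9, 45.2 and 48.8 CPM in koRnf31 (-0.15 ± 0.05). Its koRnf31 call was lost with the length correction (0.11, adjusted p = 0.168). Psmg3 was lower in all 3 knockouts (-0.35, -0.40 and -0.48 in koRnf31, koAtg5 and koRnf31-koAtg5) and lost its call in koRnf31 with the length correction (-0.05), whereas Psmg2 was called in koRnf31-koAtg5 alone of the 3 (-0.16). Of the regulatory particle chaperones Psmd5, Psmd9 and Psmd10, 2 of 3 were called lower in each knockout, Psmd5 being the one not called.

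Proteasome messages are short, and the fold changes of all genes carried a trend with length. The 41 other members had a median annotated transcript of 1581 nucleotides against 2809 for all genes, and 22.7% of genes were shorter than that median. When each library's trend with length was fitted over all genes and removed, the calls with vehicle became 33 lower and 1 higher in koAtg5 (median -0.22), 16 lower and 7 higher in koRnf31 (median -0.07) and 22 lower and 5 higher in koRnf31-koAtg5 (median -0.11). Of the lower calls made without the correction, 32 of 34, 16 of 29 and 21 of 29 were kept. The shares of all genes printed in this report are from the fit to all libraries without the correction. Counts of calls with the correction or with a library left out, here and elsewhere, are therefore not set against a background of their own. In koRnf31 all 7 alpha ring genes kept their call (median -0.26), while none of the 3 catalytic genes and none of the 3 core assembly genes called before did. The source of the length trend was not tested.

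**Figure D4:**
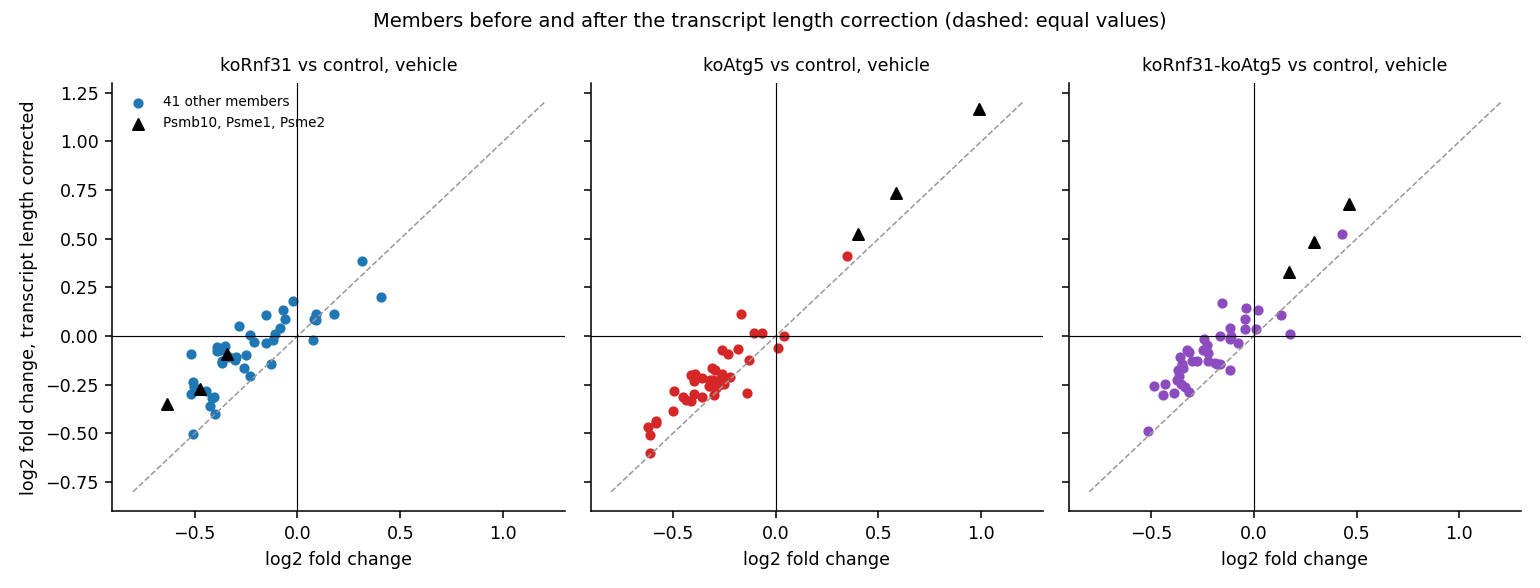
Log2 fold change against control with vehicle before (horizontal axis) and after (vertical axis) the transcript length correction, for the 41 other members (circles) and for Psmb10, Psme1 and Psme2 (triangles). Most points lie above the dashed line of equal values, and the koRnf31 points move up to a median of -0.07 while the koAtg5 median moves from -0.31 to -0.22.

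The TNFα-treated libraries share none with the vehicle-treated ones and gave the same comparison again. Against control with TNFα, 24 of the 41 members were called lower and 4 higher in koAtg5 (median -0.16), 27 lower and 1 higher in koRnf31 (median -0.20) and 13 lower and 3 higher in koRnf31-koAtg5 (median -0.07). The shares of all genes called lower were 29%, 14.7% and 23.1%. Of the members called lower with vehicle, 22 of 34 were called lower again in koAtg5, 27 of 29 in koRnf31 and 11 of 29 in koRnf31-koAtg5. The share of all genes called lower again was not taken, so these overlaps have no background of their own. With the length correction the lower calls with TNFα were 26, 14 and 14 in the same order. Psmd8 was again higher in koAtg5 (0.49 ± 0.05) and koRnf31-koAtg5 (0.71 ± 0.05), and it was not called in koRnf31 (0.08, adjusted p = 0.238), where the length correction made it a call (0.15).

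With TNFα, Psme1, Psme2 and Psmb10 again had their lowest mean in koRnf31 and their highest in koAtg5. Psme2 was at 35.9, 38.5 and 35.2 CPM in control, 30.3, 25.0 and 26.1 CPM in koRnf31, 103, 109 and 97.2 CPM in koAtg5 and 67.1, 62.4 and 58.7 CPM in koRnf31-koAtg5. Its log2 fold changes against control were -0.43 ± 0.08, 1.497 ± 0.08 and 0.78 ± 0.08. Psme1 differed by -0.25, 0.83 and 0.52 and Psmb10 by -0.38, 0.66 and 0.41, and all 6 of these were called. Of all genes, 29.9% were called higher in koAtg5 (58.9% in either direction), 22.6% higher in koRnf31-koAtg5 and 14.7% lower in koRnf31. The Psme1 call in koRnf31 was lost with the length correction (-0.07). Psmb9 had 23, 47 and 38 counts in koAtg5 and 5, 0 and 1 in control, 18.04 times the control level (95% counting interval 8.03 to 50.3). Psmb8 had 36, 52 and 44 counts in koAtg5 and 1 in all of control, a ratio of 132 with a counting interval of 23.3 to 5266.

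TNFα itself moved few members within a line. In edgeR's test no member was called in control, koAtg5 or koRnf31-koAtg5, and 1 was called in koRnf31, Psmd8, which rose from 431, 438 and 443 CPM to 535, 527 and 517 CPM (log2 fold change 0.27 ± 0.05, adjusted p = 0.00351; 0.902% of all genes were called higher there). Of all genes, 0.0961% were called in control, 1.17% in koRnf31, 0% in koAtg5 and 0.133% in koRnf31-koAtg5 (0.0665% in each direction), which is 13, 158, 0 and 18 genes, although 2946, 1613, 1770 and 1195 had an unadjusted p under 0.05. DESeq2 called 682 genes in control and 8 members, 7 of them lower, and 68 genes and 1 member, Psme2, in koAtg5. Psme2 in koAtg5 differed by 0.31 ± 0.07 with TNFα (edgeR adjusted p = 0.124). In control, leaving out vehicle replicate 1 gave 25 members called, 23 of them lower, and leaving out vehicle replicate 2 gave 0. The shares of all genes above are from all libraries, so the 25 is not set against a background of its own.

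The responses of the 41 members, nearly all not called, were small in each line. Their median log2 response was -0.12 in control, -0.06 in koRnf31, 0.09 in koAtg5 and 0.05 in koRnf31-koAtg5, where the median of all genes was -0.01 in control and within 0.01 of 0 in the others. The control median was -0.06 without vehicle replicate 2, and with the length correction the medians were -0.04, -0.03, 0.02 and 0.02. Tested as a difference of responses, 19 of the 41 and also Psme1 and Psme2 responded more positively in koAtg5 than in control, and Psme4 more negatively, 22 members in all. Of all genes 4.94% differed upwards, 6.42% downwards and 11.4% in either direction. In koRnf31-koAtg5 the count was 2, Psma2 and Psmd8 (0.384% of all genes upwards, 0.769% downwards and 1.15% in all), and in koRnf31 it was 0 (0.00739% of all genes, with 1643 genes at an unadjusted p under 0.05). The median difference of the 41 was 0.22 in koAtg5, 0.16 in koRnf31-koAtg5 and 0.06 in koRnf31.

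These differences rest on the control vehicle group. Without control vehicle replicate 2 the koAtg5 count was 4 and that of koRnf31-koAtg5 was 0, and without replicate 1 they were 32 and 24. No share of all genes is given for these settings, so the counts have no background of their own. With the length correction no member was called in either, and the median difference was 0.06 in koAtg5 and 0.04 in koRnf31-koAtg5.

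**Figure D5:**
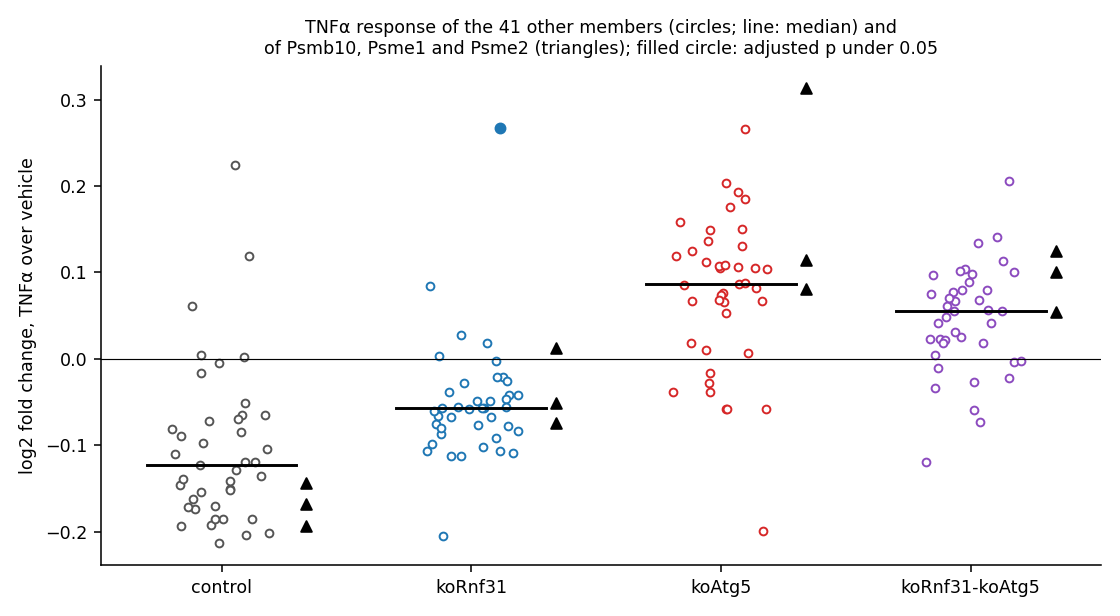
Log2 fold change with TNFα over vehicle for the 41 other members (circles, filled where adjusted p under 0.05, line median) and for Psmb10, Psme1 and Psme2 (triangles) in each line. The medians run from -0.12 in control to 0.09 in koAtg5, and 1 circle, Psmd8 in koRnf31, is filled.

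In the comparison of koRnf31-koAtg5 with koAtg5 with vehicle, which does not use the control libraries, 16 of the 41 were called higher and 1 lower (median 0.10), where 18.2% of all genes were called higher. Psmc1 (0.28 ± 0.04, adjusted p = 1.15e-06), Psmd12 (0.21 ± 0.04), Psmb7 (0.24 ± 0.04) and Psmd1 (0.14 ± 0.04) were among those higher, and Psmd10, a chaperone, was the one lower (-0.19 ± 0.07). With the length correction 24 were called higher and 1 lower. Against koRnf31, 7 were higher and 9 lower (median 0.002), near or below the 22.5% and 25.6% of all genes, and Psmd8 was highest (0.69 ± 0.05, adjusted p = 6.45e-12).

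Genes that act with the proteasome but carry other symbols were followed as a list, of which 20 were tested. With vehicle, 9 were called higher and 6 lower in koRnf31, 2 higher and 12 lower in koAtg5 and 2 higher and 9 lower in koRnf31-koAtg5. The shares of all genes called higher and lower were 24.1% and 21.5%, 31.3% and 30.7%, and 25.3% and 27.2%, so the 6 of 20 lower in koRnf31 lie near that background. Pomp, the maturation factor of the core, fell from 221, 269 and 224 CPM in control to 186, 187 and 178 CPM in koRnf31 (-0.38 ± 0.06), 179, 173 and 175 CPM in koAtg5 (-0.43 ± 0.06) and 177, 173 and 153 CPM in koRnf31-koAtg5 (-0.51 ± 0.06). Nfe2l1 was at 119, 102 and 115 CPM in control and rose to 143, 152 and 148 CPM in koRnf31 (0.39 ± 0.05), 207, 210.0 and 206 CPM in koAtg5 (0.89 ± 0.05, adjusted p = 1.69e-14) and 146, 154 and 150 CPM in koRnf31-koAtg5 (0.42 ± 0.05). Adrm1, a ubiquitin receptor of the regulatory particle, was lower in koAtg5 (-0.64 ± 0.04) and koRnf31-koAtg5 (-0.24 ± 0.04). Vcp, the unfoldase that delivers substrates, was higher in koRnf31 (0.55 ± 0.06) and lower in koAtg5 (-0.17 ± 0.06).

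Interferon-inducible genes that supply peptides to MHC class I, a list of 8, were higher in the same lines. All 8 were called higher in koAtg5 and in koRnf31-koAtg5 with vehicle (medians 2.39 and 2.32), and 3 of 8 in koRnf31, where 31.3%, 25.3% and 24.1% of all genes were called higher. Tap1, the peptide transporter subunit that shares its upstream region with Psmb9, rose from 1.38, 0.857 and 0.765 CPM in control to 8.65, 6.97 and 7.25 CPM in koAtg5 (2.92 ± 0.19) and 6.12, 5.94 and 7.16 CPM in koRnf31-koAtg5 (2.67 ± 0.19). Irf1, a factor that activates Psmb9 and Tap1, rose from 9.43, 9.52 and 9.72 CPM to 37.4, 39.3 and 35.1 CPM in koAtg5 (1.96 ± 0.08) and 23.4, 21 and 20.7 CPM in koRnf31-koAtg5 (1.18 ± 0.08). Irf1 was lower in koRnf31-koAtg5 than in koAtg5 (-0.78 ± 0.07, adjusted p = 2.59e-09), as Psme1 and Psme2 were, whereas Tap1 was not called (-0.25, adjusted p = 0.197).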

How the data were processed

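Gene-level RNA-seq values of 24 libraries were used, 3 for each of 8 groups taken from the sample labels. The deposited table gives expected counts by gene symbol, before any normalization. The submitters' processing notes name STAR, RSEM, DESeq2, GRCm38 and mm10 with no versions. The unit was inferred from whole numbers with unequal totals, and the strand setting was not given in the sources used here. Rounding changed 0 values. Of 15739 rows, 1 has a blank name (a mean of 0.140% of counts) and was left out.

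edgeR 4.0.16 in R 4.3.3 was run with TMM scaling, filterByExpr by the 8 groups (2211 genes removed, 13527 left) and the quasi-likelihood test on 8 group means, with Benjamini-Hochberg adjustment over all genes tested in each of 15 comparisons. A gene was called at an adjusted p under 0.05. The test was tested on simulated data. Levels are CPM at TMM library size, and fold changes are log2 estimates ± SE. The p-values measure the spread between replicates of the same line and treatment, with an estimate for each gene that all 8 groups share. Low-count ratios have exact 95% intervals, and 0.5 counts were added in pair ratios. Lengths and coordinates are from GENCODE M21 (15519 symbols matched). The longest protein-coding transcript of the basic set was used for length, or the longest of any kind where there was none. For the length correction, a lowess curve (span 0.5) of a library's departures from the gene means against log2 length was used as an offset. Sequences are from RefSeq (GRCm38.p6).

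The rule for naming genes took the 5 immunoproteasome genes and Psmb5, Psmb6 and Psmb7 always, the 4 other members with the smallest adjusted p in a comparison, the extremes of each role set in koAtg5, and Pomp, Nfe2l1, Tap1, Irf1 and up to 4 related genes by adjusted p. Psmd1, Psmd4, Psmd10, Emc9 and Irf9 fall outside that rule and were chosen after their values were seen. The members and lists were chosen with earlier results of these data known. Alternatives were RLE scaling, no filter, a mean of at least 1 CPM, robust spread, DESeq2 1.42.0, a replicate term, a fit to the compared groups alone, the length correction, 1 count added in pair ratios and leaving out each library. The length correction together with leaving out control vehicle replicate 2 was added after the data were seen.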

Additional observations from a re-analysis of the deposited data

Results flagged for a closer look

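The response to TNFα differed between koAtg5 and control for 22 members by a test of the difference itself (edgeR, adjusted p under 0.05). Of all genes, 11.4% differed in either direction by the same test. As log2 differences of responses, Psma6 differed by 0.37, Psmb4 by 0.37, Psmb5 by 0.38, Psmb6 by 0.29, Psmb7 by 0.22 and Psmg1 by 0.39, while Psme4 differed by -0.42. Psme1 differed by 0.25 and Psme2 by 0.51. Of the related genes, Pomp differed by 0.27, Ecpas by -0.28, Nfe2l1 by -0.29 and Ddi2 by -0.30. Between koRnf31-koAtg5 and control, 2 members differed, Psma2 by 0.29 and Psmd8 by 0.28, and Pomp differed by 0.35, where 1.15% of all genes differed. Without control vehicle replicate 2 the counts were 4 and 0, and with the length correction they were 0 and 0. The source of either shift was not tested.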

How the results depend on the processing

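Over 127 settings that left all libraries in or combined 2 changes, 102 counts of called members stayed within 1.5 times the reported count and 25 did not. For the TNFα response, called members were 2 with a replicate block and 8 with DESeq2 in control, 2 and 2 in koRnf31, and 1 and 1 in koRnf31-koAtg5, where the length correction also gave 1. In koAtg5, DESeq2 gave 1 and the fit of only the groups compared gave 1. For the difference of responses, koRnf31 had 1 with the block, with the length correction, with DESeq2 and with the correction without control vehicle replicate 2. KoAtg5 had 22 as reported, 0 with the length correction, 0 with both changes and 7 with only the groups compared. KoRnf31-koAtg5 had 2 as reported, 5 with the block, 11 with DESeq2, 1 at a mean of 1 CPM, and 0 with no filter, with the length correction, with both changes and with only the groups compared. Against control, koRnf31 had 35 with vehicle as reported and 19 with both changes, and 31 with TNFα as reported and 19 with the length correction.

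Leaving out 1 library gave ranges of 0 to 25, 1 to 1, 0 to 0 and 0 to 1 for the TNFα responses in control, koRnf31, koAtg5 and koRnf31-koAtg5. Against control with vehicle they were 33 to 38, 40 to 41 and 32 to 37 for koRnf31, koAtg5 and koRnf31-koAtg5, and with TNFα 27 to 31, 28 to 30 and 17 to 20. With all libraries in, the counts with vehicle were 35, 40 and 36, of which 32, 35 and 32 were among the 41 other members. Of all genes, 45.6%, 62% and 52.4% were then called with vehicle and 32.3%, 58.9% and 45.7% with TNFα. Counts and ranges of all members take in Psmb8 and Psmb9, whose calls in lines without Atg5 are not read as tests. The ranges are not set against a background of their own. For koRnf31-koAtg5 the ranges were 19 to 21 against koAtg5 and 16 to 21 against koRnf31, where 38.1% and 48.1% of all genes were called with all libraries in. The response differences ranged over 0 to 1, 4 to 32 and 0 to 24 for koRnf31, koAtg5 and koRnf31-koAtg5.

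Single genes turned sign where they were near 0. With the length correction, Psme1 turned to -0.013 and -0.00044 for the responses in koAtg5 and koRnf31-koAtg5, Psmb9 to 0.046 in koRnf31 with vehicle, and Psmb7 to 0.0033 and 0.0044 in koRnf31 with vehicle and TNFα. When 1 library was left out, Psmb9 ranged from -0.79 to 0.27 and Psme2 from -0.069 to 0.074 for the response in koRnf31, and Psmb9 from -0.11 to 0.60 for that in koRnf31-koAtg5, from -0.90 to 0.34 in koRnf31 with vehicle and from -0.062 to 2.23 with TNFα. The Psmb9 values are descriptions from few counts and not tests.

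Replicate numbers did not pair the libraries: over 12 comparisons, correlations of same-numbered deviations ran from -0.08 to 0.08, and in 0 comparisons were all over 0.1. With the replicate block, counts against control were 36, 41 and 36 with vehicle and 31, 35 and 22 with TNFα for koRnf31, koAtg5 and koRnf31-koAtg5. These counts are also of all members, Psmb8 and Psmb9 among them. Depth limits Psmb8 and Psmb9, with at most 1 and 7 counts per library in cells with Atg5.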
